A study of Mus musculus with 32 samples.

Results

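Prdm1, Irf4, Xbp1, Eaf2, Derl3, Creld2, Sdc1 and Slpi are 8 regulators and markers of plasma cells, the antibody-secreting end stage of the B lineage. They were taken as every probe set whose symbol in the array's probe-to-gene table is 1 of these names, whatever its value. These are 8 of the 18193 genes named in that table and 15 of the 45101 probe sets on the array: 4 each for Xbp1 and Sdc1, 2 for Irf4 and 1 for each of the other 5 genes. For a gene with several, the probe set with the highest mean over all 32 arrays stands for it, and the others are described beside it.

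The arrays measured whole peripheral lymph node, mesenteric lymph node, spleen and thymus from female C57BL/6 mice aged 12 weeks. In 4 mice, a transgene labelled CD2-CD30L drove CD30 ligand, a TNF family protein that binds the receptor CD30, constitutively on T cells. The controls were 4 littermates without the transgene, called wild type here. Each mouse gave all 4 tissues, so each tissue has 4 transgenic and 4 wild type arrays, and a mouse number within a genotype names the same animal in every tissue. CD2 regulatory sequence is active across the T lineage, thymocytes included, so the animals are a model of CD30 ligand made in T cells at all times and not of its regulated expression.

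An activated B cell becomes a plasma cell when Irf4 and Prdm1 (Blimp1), both transcription factors, switch off the B cell programme and switch on antibody secretion. Xbp1, a transcription factor whose mRNA is spliced when unfolded protein collects in the endoplasmic reticulum, then enlarges the secretory machinery. Derl3 and Creld2 act in the endoplasmic reticulum, Sdc1 (CD138) is the surface proteoglycan by which plasma cells are commonly recognised, and Slpi is a secreted protease inhibitor made by epithelium, phagocytes and cells of the B lineage. Eaf2, which binds ELL elongation factors, is high in germinal centre B cells and is not specific to plasma cells.

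The promoters of 2 members hold a sequence by which the unfolded protein response reads its targets, and they are shown because no other member has it. The endoplasmic reticulum stress response element is CCAAT, then 9 bases, then CCACG, on either strand. RefSeq promoters of GRCm38.p6, from 250 bases before to 50 bases after the start of a gene, were searched. All 8 genes are in that table, with 10 promoters, since Eaf2 has several. The sequences below are the 250 bases before the start, 5′ to 3′ on the gene's own strand, and the capitals mark the outer parts of the element, which lies on the opposite strand. That of Derl3 is chr10:75893148-75893397 and that of Creld2 is chr15:88819396-88819645, both on the plus strand.

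Derl3: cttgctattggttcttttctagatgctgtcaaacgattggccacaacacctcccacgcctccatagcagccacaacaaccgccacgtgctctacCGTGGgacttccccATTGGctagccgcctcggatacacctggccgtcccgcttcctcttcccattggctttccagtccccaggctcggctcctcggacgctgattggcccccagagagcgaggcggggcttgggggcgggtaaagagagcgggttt

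Creld2: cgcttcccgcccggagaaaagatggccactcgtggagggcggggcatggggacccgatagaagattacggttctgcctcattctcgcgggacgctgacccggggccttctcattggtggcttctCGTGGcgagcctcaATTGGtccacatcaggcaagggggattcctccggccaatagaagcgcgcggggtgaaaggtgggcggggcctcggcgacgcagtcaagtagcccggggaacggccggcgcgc

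The element begins 156 bases before the start in Derl3 and 126 bases before it in Creld2. It was found in 39 of 32851 promoters of the same length, 0.119%. Of 31 genes of a list of the unfolded protein response and secretion that are in the table, 8 hold it: Calr, Canx, Dnajc3, Ero1b, Hsp90b1, Hspa5, Pdia6 and Syvn1. Its outer part CCACG alone, which overlaps the full element, is in promoters of 6 member genes and in 32.8% of all promoters. ACGT, the core of many basic leucine zipper sites, is in promoters of 4 member genes and in 30.9% of all. The unfolded protein response element TGACGTG is in none of the members' promoters and in 2.01% of all. A match describes these letters only.

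The 32 deposited arrays had a trimmed mean intensity between 106 and 273, and arrays of the same tissue correlated at 0.945 to 0.986. The probe set for Tnfsf8, the CD30 ligand gene, lay between 6.48 and 6.58 (log2) in transgenic and between 6.44 and 6.70 in wild type peripheral nodes. It overlapped between the genotypes in the other tissues as well, and the sources used here do not give which part of the transcript the transgene carries, so this probe set does not check the labels. A list of erythroid genes had a mean of 9.16 to 10.82 in the spleens and at most 5.72 elsewhere, and a T cell list was highest in thymus, each on its tissue's own scale. Some arrays held transcripts of neighbouring tissue. In mesenteric node, the mean of 11 exocrine pancreas genes was 13.25 in wild type mouse 2, 12.70 in transgenic mouse 1 and 12.53 in transgenic mouse 3, and at most 5.44 in the other 5. In peripheral node, the mean of 10 skeletal muscle genes was 9.98 in wild type mouse 1, 8.19 in wild type mouse 3, 7.25 in transgenic mouse 1 and at most 5.31 in the others. The thymus array of wild type mouse 2 had a muscle mean of 7.29, with the other thymi no higher than 5.47, and in spleen the pancreas mean was 7.16 and 6.51 in wild type mice 1 and 4 and at most 5.72 in the others. The 3′ to 5′ signal ratio of Actb, which rises as RNA degrades, lay between 2.83 and 3.58 in the 4 spleens from mice numbered 1 or 2, whatever the genotype, and between 1.65 and 1.85 in the 4 numbered 3 or 4. It was also raised in thymus of transgenic mice 1 and 2 (2.25 and 2.23), against 1.78 and 1.68 in wild type mice 1 and 2 and 1.34 to 1.43 in the rest, and in mesenteric node of transgenic mouse 1 (3.10). In peripheral node it was 2.09 in transgenic mouse 4 and 1.52 to 1.85 in the others.

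The first comparison asked which of these genes differ between transgenic and wild type mice in each tissue. Values are log2 (intensity + 16), where 4 is the floor, made comparable within a tissue, so a difference of 1 is a 2-fold difference on that scale and those of dim genes are understated. The largest differences were those of Slpi in peripheral node and thymus, of Eaf2 in peripheral node and spleen, and of Derl3 in the same 2 tissues. Derl3 was close to the floor in the peripheral node of wild type mice 3 and 4 (5.22 and 4.51). No member passed a Benjamini-Hochberg adjusted limma p of 0.05 in any tissue when each tissue was fitted on its own. That fit called 0.037% of 27022 probe sets in peripheral node, 0% in mesenteric node, 0.0111% in spleen and 0.0037% in thymus. At an unadjusted p under 0.05 the members counted 7 of 14 tested probe sets in peripheral node, 3 of 13 in mesenteric node, 5 of 14 in spleen and 3 of 13 in thymus, all higher in transgenic mice. Over all probe sets the share at that level, in either direction, was 8.36%, 4.71%, 8.56% and 7.26%. The median difference over the member genes tested was 0.37, 0.17, 0.68 and 0.26 in the same order of tissues, and over all probe sets it lay between -0.01 and 0.01. T cell genes moved the other way in peripheral node, where 5 of 7 were lower at an unadjusted p under 0.05, against 8.36% of all probe sets in either direction. Their mean was 10.48 to 10.67 in transgenic and 10.68 to 10.80 in wild type peripheral nodes, and its part in the members' differences was not tested. In whole tissue, fewer cells of a type and less RNA per cell cannot be told apart.

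A second limma fit, over all 32 arrays with the mouse as a random block, has more degrees of freedom for the error and assumes that a gene varies alike in all 4 tissues. Members it called did not vary alike. The transgenic SD of Slpi was 1.34 in peripheral and 0.29 in mesenteric node, and that of Eaf2 0.56 and 0.04. Its correlation within a mouse was 0.016, so the arrays were treated as close to independent. The adjusted p of this fit are to be read with these limits. The fit called 0.396% of probe sets in peripheral node, 0.0074% in mesenteric node, 0.829% in spleen and 0.215% in thymus. Among the members it called Eaf2 and Slpi in peripheral node, Eaf2, Creld2 and Sdc1 in spleen and Slpi in thymus. These calls are given below with both fits, since they rest on the pooled error.

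**Figure D1:**
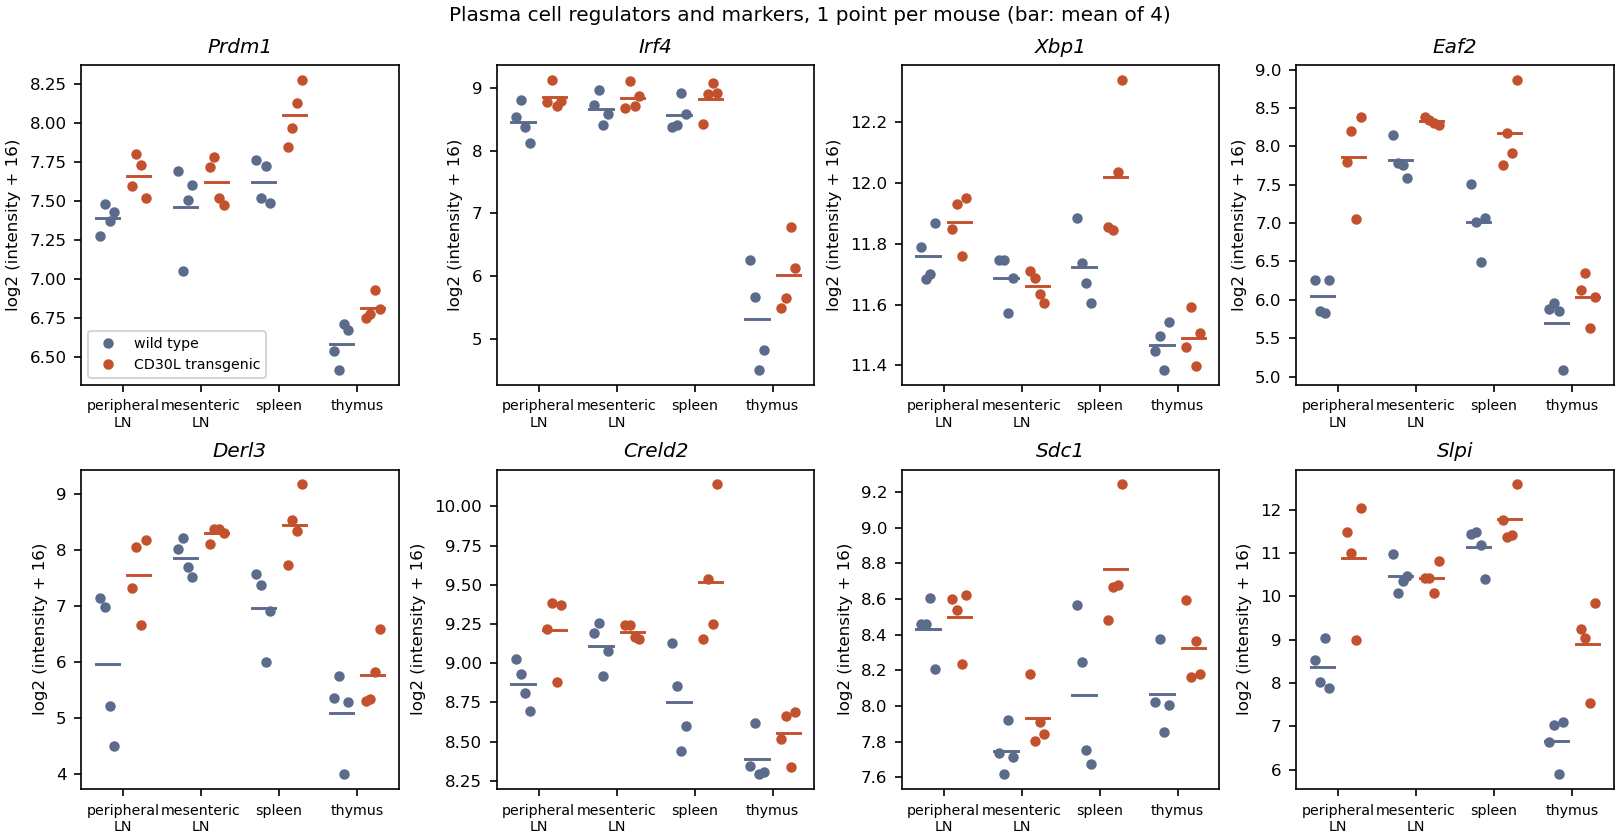
Log2 (intensity + 16) of the representative probe set of each of the 8 genes in every mouse, by tissue and genotype, after normalization within the tissue, with bars at the means of 4 mice. All 4 transgenic points lie above all 4 wild type points for Eaf2 in both lymph nodes and spleen and for Slpi in thymus, while Slpi in mesenteric node overlaps, with means of 10.44 and 10.47.

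Eaf2 had the smallest p of any member, in peripheral node. In peripheral node the transgenic mice 1 to 4 had 7.79, 8.20, 7.05 and 8.38, and the wild type mice 6.26, 5.85, 5.83 and 6.25. Every transgenic value was above every wild type value, and transgenic mouse 3 was the lowest of its group. The difference was 1.81 ± 0.27 (SE), a 3.50-fold difference, with an adjusted limma p of 0.12, and the fit over all arrays gave 1.73 ± 0.26 and an adjusted p of 0.00111. In spleen the values were 7.75, 8.17, 7.91 and 8.87 in transgenic and 7.51, 7.01, 6.49 and 7.07 in wild type mice. The groups were again apart, by 1.16 ± 0.28, with an adjusted p of 0.53 within the tissue and of 0.0225 in the fit over all arrays.

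In mesenteric node the 4 transgenic values for Eaf2 were close together, at 8.38, 8.35, 8.31 and 8.28, against 8.15, 7.78, 7.76 and 7.59 in wild type. The difference of 0.51 ± 0.12 had an adjusted limma p of 0.63, and it was 0.49 without the 3 arrays with pancreas transcripts. In thymus the Eaf2 groups overlapped, with a difference of 0.35 ± 0.22. Having all transgenic above all wild type arrays was a property of 2.43% of all probe sets in peripheral node, 2.71% in mesenteric node, 2.8% in spleen and 2.54% in thymus. Among the member genes it held for 2 of 8 in peripheral node, 1 of 8 in mesenteric node, 4 of 8 in spleen and 2 of 7 tested in thymus.

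Prdm1, the repressor that commits a B cell to secretion, differed less but stood apart in 3 tissues. Peripheral node had 7.59, 7.80, 7.73 and 7.52 in transgenic against 7.27, 7.48, 7.37 and 7.43 in wild type mice. Spleen had 7.84, 7.96, 8.13 and 8.28 against 7.76, 7.52, 7.72 and 7.48. Thymus had 6.75, 6.77, 6.93 and 6.81 against 6.53, 6.41, 6.71 and 6.67. In none of the 3 did the groups overlap, though in peripheral node and in thymus the lowest transgenic and highest wild type mouse nearly met. The differences were 0.27 ± 0.10, 0.43 ± 0.13 and 0.23 ± 0.10, with adjusted limma p of 0.49, 0.54 and 0.68. In mesenteric node Prdm1 overlapped, with a difference of 0.16 ± 0.15, which was 0.03 without the arrays with pancreas transcripts.

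Irf4, which is needed at the start of plasma cell formation and also in activated T cells, overlapped between genotypes in every tissue. In peripheral node the values were 8.78, 9.13, 8.71 and 8.79 in transgenic and 8.54, 8.81, 8.37 and 8.12 in wild type mice, a difference of 0.39 ± 0.16 (adjusted limma p 0.57). The differences were 0.18 ± 0.15 in mesenteric node, 0.26 ± 0.18 in spleen and 0.70 ± 0.42 in thymus. Thymus carried the widest spread, from 5.49 to 6.78 in transgenic and from 4.50 to 6.26 in wild type mice. There the difference was -0.39 between mice 1 and 2 of the genotypes and 1.79 between mice 3 and 4. The second Irf4 probe set gave 0.04 ± 0.17, 0.28 ± 0.11, 0.21 ± 0.16 and -0.02 ± 0.23 in peripheral node, mesenteric node, spleen and thymus, and turned sign in peripheral node and thymus under some alternatives.

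Xbp1 had 4 probe sets, and the difference of its representative one was below those of Prdm1, Irf4 and Eaf2 in peripheral node, mesenteric node and thymus, and above that of Irf4 in spleen. Its representative probe set had 11.85, 11.93, 11.76 and 11.95 in transgenic and 11.79, 11.68, 11.70 and 11.87 in wild type peripheral node, a difference of 0.11 ± 0.09. In spleen the values were 11.85, 11.85, 12.04 and 12.34 against 11.89, 11.74, 11.67 and 11.60, a difference of 0.29 ± 0.14 (adjusted limma p 0.60). Transgenic mouse 4 was the highest and wild type mouse 1 lay within the transgenic range. All 4 Xbp1 probe sets had a higher transgenic mean in peripheral node (0.11 to 0.40) and in spleen (0.17 to 0.37), where without normalization 1 of them turned to -0.03. In mesenteric node they ran from -0.19 to 0.17 and in thymus from -0.12 to 0.05, with both signs in each. The deposited values do not separate the spliced from the unspliced Xbp1 mRNA, so the level of this gene does not measure its splicing.

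**Figure D2:**
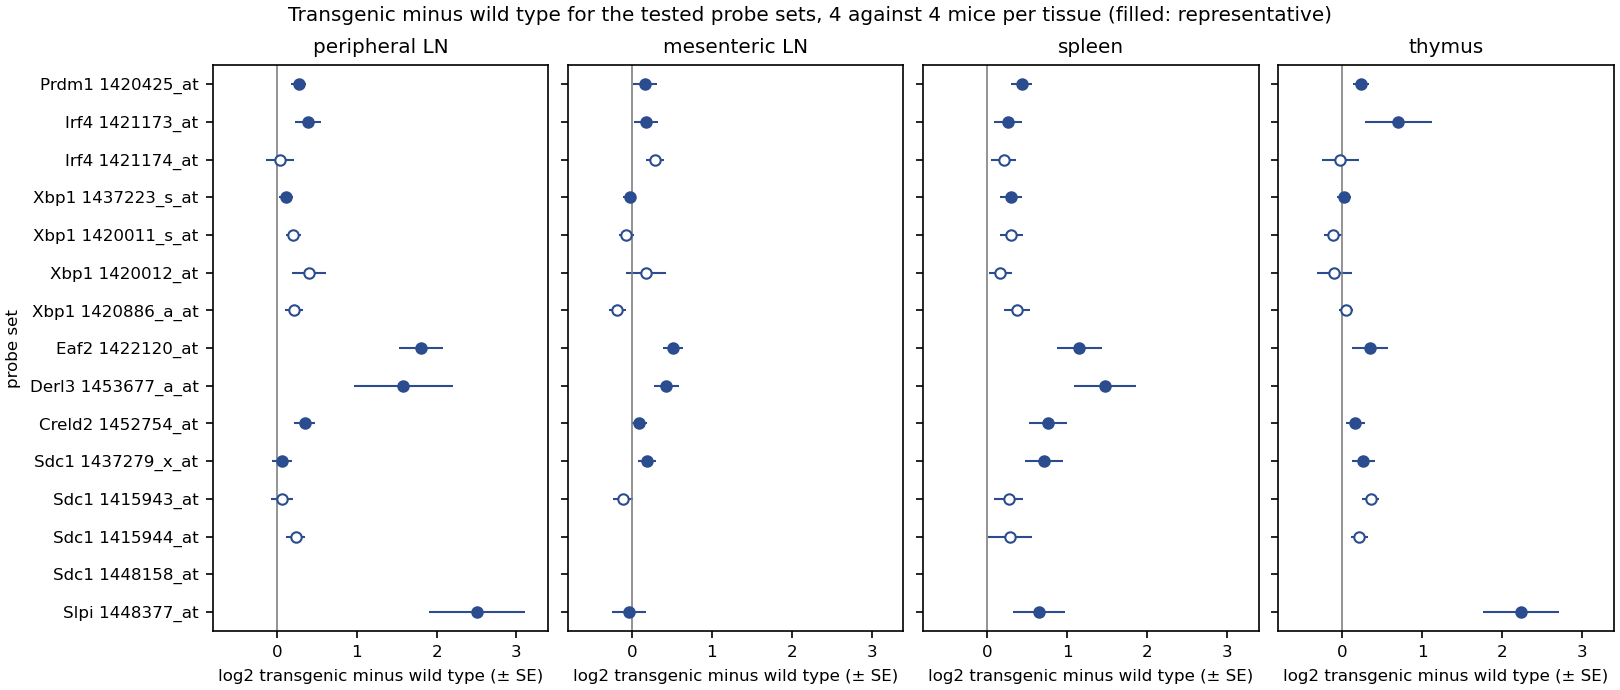
Transgenic minus wild type difference (log2, ± SE) of each tested member probe set in 4 tissues, with representative probe sets filled and others open. Positions without a point did not pass the filter on low values, and the points furthest right are Slpi in peripheral node (2.51) and thymus (2.24) and Eaf2 in peripheral node (1.81).

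Of the members that act in the endoplasmic reticulum, Derl3 helps move misfolded proteins out to be degraded, and Creld2 is a resident protein induced by folding stress. Derl3 in spleen had 7.72, 8.53, 8.34 and 9.17 in transgenic and 7.57, 7.37, 6.00 and 6.92 in wild type mice. The groups did not overlap, and the difference was 1.48 ± 0.39 (adjusted limma p 0.53 within the tissue and 0.12 in the fit over all arrays). In peripheral node it had 7.32, 8.04, 6.66 and 8.17 against 7.15, 6.98, 5.22 and 4.51. Wild type mice 1 and 2 lay within the transgenic range there and wild type mice 3 and 4 far below it, so the difference of 1.58 ± 0.62 was 0.62 between mice 1 and 2 and 2.55 between mice 3 and 4.

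In mesenteric node Derl3 had 8.10, 8.38, 8.38 and 8.30 against 8.01, 8.21, 7.70 and 7.52, a difference of 0.43 ± 0.16 with overlap. Only wild type mouse 2, whose array held the most pancreas transcripts, reached the transgenic range. Without the 3 arrays with pancreas transcripts the difference was 0.60. In thymus it did not pass the filter, at 5.31 to 6.59 in transgenic and 4.00 to 5.76 in wild type mice, where 1 wild type array was at the floor.

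Creld2 stood apart between genotypes in spleen alone, by a narrow gap. The spleens had 9.15, 9.54, 9.25 and 10.14 in transgenic and 9.13, 8.85, 8.44 and 8.60 in wild type mice. The difference was 0.77 ± 0.24 with an adjusted limma p of 0.54, and the fit over all arrays called it, at an adjusted p of 0.0207. In peripheral node the values were 9.22, 9.38, 8.88 and 9.37 against 9.03, 8.93, 8.81 and 8.70. Transgenic mouse 3 lay among the wild type mice, and the difference was 0.35 ± 0.13 (adjusted p 0.54). The differences in mesenteric node, 0.09 ± 0.10, and thymus, 0.16 ± 0.12, were close to their standard errors.

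Sdc1, the surface marker, showed its largest difference in spleen, where transgenic mice had 8.48, 8.67, 8.68 and 9.25 and wild type mice 8.57, 8.25, 7.75 and 7.67. Only wild type mouse 1 reached the transgenic range. The difference was 0.71 ± 0.24 with an adjusted limma p of 0.56, and 0.0411 in the fit over all arrays. The other Sdc1 probe sets that passed the filter in spleen gave 0.27 ± 0.18 and 0.29 ± 0.27. In peripheral node the representative probe set gave 0.07 ± 0.12, in mesenteric node 0.19 ± 0.11 and in thymus 0.26 ± 0.14. In thymus another Sdc1 probe set (1415943_at) stood apart, at 8.14, 8.05, 8.17 and 8.33 in transgenic and 7.89, 7.93, 7.85 and 7.60 in wild type mice, by 0.35 ± 0.11 (adjusted p 0.61). The last Sdc1 probe set was at the floor of 4 on most arrays and at most 5.39 on any, and passed the filter in no tissue.

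Slpi had the largest differences of all members, and in thymus they did not overlap. Thymus had 9.24, 9.04, 7.54 and 9.84 in transgenic and 6.64, 7.03, 5.89 and 7.11 in wild type mice. The difference was 2.24 ± 0.48, which is 4.74-fold, with an adjusted limma p of 0.44, and of 0.0363 in the fit over all arrays. It was 2.30 between mice 1 and 2 and 2.19 between mice 3 and 4. In peripheral node Slpi had 11.49, 11.00, 8.99 and 12.04 against 8.52, 8.03, 9.04 and 7.89. Here 3 transgenic mice were above every wild type mouse and transgenic mouse 3 was below wild type mouse 3. The difference was 2.51 ± 0.60, or 5.69-fold, with an adjusted p of 0.29 and, in the fit over all arrays, 0.00848. Without transgenic mouse 3 it was 3.14 with an adjusted limma p of 0.0454. That mouse was the lowest of its group, so leaving it out was bound to raise the difference, and this p is no support. Leaving out any other mouse brought no call, and the adjusted p reached 0.59 under the alternatives.

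In the other tissues Slpi overlapped between genotypes. Spleen had 11.76, 11.36, 11.42 and 12.60 against 11.44, 11.50, 11.20 and 10.41, a difference of 0.65 ± 0.32 (adjusted limma p 0.62), which was 0.09 between mice 1 and 2 and 1.20 between mice 3 and 4. Mesenteric node had 10.43, 10.42, 10.08 and 10.81 against 10.98, 10.08, 10.36 and 10.48, a difference of -0.04 ± 0.21 that turned positive, to 0.14, without normalization or with a common median. Transgenic mouse 4 had the highest Slpi of the 4 transgenic mice in each tissue and transgenic mouse 3 the lowest in all but spleen.

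Genes of cells that can also make Slpi were measured beside it. The mean of 9 neutrophil genes was 8.36 in the peripheral node of transgenic mouse 1 and 6.70 to 7.13 in the other 3 transgenic mice, against 6.68 to 6.95 in wild type. There 7 of 8 tested neutrophil genes had a higher transgenic mean, with a list median of 0.41, and Camp, an antimicrobial peptide of neutrophil granules, stood apart by 1.44 ± 0.45 (unadjusted limma p 0.0109, adjusted p 0.43). Slpi was 11.49 in transgenic mouse 1, and 11.00 and 12.04 in transgenic mice 2 and 4, whose neutrophil means were 6.70 and 6.89. The part of neutrophils, and of the Actb ratio, in the nodal Slpi difference was not tested. In thymus the neutrophil mean was 6.61 to 6.95 in transgenic and 6.49 to 7.00 in wild type mice. That of 7 macrophage and dendritic cell genes there was 8.79 to 8.95 against 8.55 to 8.80, with 6 of 6 tested genes higher in the mean and 2 of them (C1qb and Itgax) at an unadjusted limma p under 0.05. The mean of 11 epithelial genes was 7.11 to 7.35 against 7.05 to 7.17, and that of 12 B cell genes 7.47 to 7.85 against 7.22 to 7.62. The part of these cells, and of the Actb ratio, in the thymic difference was not tested.

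Within a tissue, the mice of a group differed in a way that ran across the members, but their order changed between tissues. In peripheral node transgenic mouse 3 was the lowest of its group for 7 of 8 genes and transgenic mouse 4 the highest for 5. In spleen transgenic mouse 4 was the highest for 7 of 8 and transgenic mouse 1 the lowest for 6, while wild type mouse 1 was the highest of its group for 6. In peripheral node wild type mouse 4 was the lowest for 5. Transgenic mouse 3 was the lowest for 0 genes in spleen, and transgenic mouse 1 for 0 in peripheral node. Transgenic mouse 4 was the lowest for 4 of 8 in mesenteric node. In spleen the differences between mice 3 and 4 of the genotypes were larger than those between mice 1 and 2 for 7 of the 8 genes, with Irf4 the exception at 0.25 against 0.27. Among them were Derl3, at 2.30 against 0.66, Eaf2, at 1.61 against 0.70, and Sdc1, at 1.25 against 0.17. These are also the spleens that differ in the Actb ratio, and the part of RNA quality in the size of the difference was not tested. Erythroid genes had a mean of 9.16 to 10.16 in transgenic and 9.95 to 10.82 in wild type spleens, and T cell genes 9.39 to 9.64 and 9.09 to 9.38. Their part in the splenic differences was not tested either.

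To use 1 value per animal, each gene was averaged over the 2 lymph nodes and spleen of a mouse and tested by a two-sided exact permutation of the genotypes, for which the smallest possible p is 0.0286. Prdm1, Eaf2, Derl3 and Sdc1 reached that value, each higher in 4 of 4 transgenic mice than in any wild type mouse, by 0.29, 1.16, 1.16 and 0.32. Xbp1, Irf4 and Creld2 had an exact p of 0.0571 and Slpi of 0.0857, with 3 of 4 transgenic mice above every wild type mouse and differences of 0.13, 0.28, 0.40 and 1.04. Over all 27022 probe sets with a mean above the filter, 2.97% had every transgenic above every wild type mouse on the same averages. Eaf2 averaged 7.76 to 8.51 in transgenic and 6.70 to 7.30 in wild type mice. Derl3 averaged 7.72 to 8.55 against 6.30 to 7.58, and Prdm1 7.72 to 7.85 against 7.35 to 7.57. For Sdc1 the lowest transgenic mouse, at 8.28, nearly met the highest wild type mouse, at 8.26. Only representative probe sets were averaged. Another Sdc1 probe set (1415943_at) differed by 0.06 in peripheral node, -0.11 in mesenteric node and 0.27 in spleen. The 8 p-values are 1 family and are unadjusted, and the genes were chosen with earlier results of these mice known.

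Whether the genotype difference itself differed between tissues was asked of each animal's gap between a pair of tissues, by limma. No member passed in any of the 6 pairs, with smallest adjusted p between 0.313 and 0.963. The test called 0.0074% of probe sets for spleen against thymus and 0% for each of the other 5 pairs. Of 14 member probe sets, 2 to 5 had an unadjusted p under 0.05 in a pair, and over all probe sets 5.00% to 9.73% did. The widest contrast was that of Slpi, whose difference was larger by 2.53 ± 0.52 in peripheral than in mesenteric node (unadjusted p 0.00104, adjusted p 0.843). Eaf2 was larger by 1.23 ± 0.28 in peripheral than in mesenteric node (adjusted p 0.843) and by 1.37 ± 0.31 in peripheral node than in thymus (adjusted p 0.313).

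Levels in wild type mice gave the order of the tissues, on a scale set over all 32 arrays. Most members were highest in mesenteric node or spleen and lowest in thymus. In limma with the mouse as a block, 4 of 8 genes were higher in mesenteric than in peripheral node, against 2.18% of all probe sets called in either direction. They were Slpi (5.16-fold), Derl3 (4.26-fold), Eaf2 (3.90-fold) and Creld2 (1.46-fold), with adjusted p between 0.000313 and 0.0222. Derl3 was close to the floor of 4 in the peripheral node of mice 3 and 4 (5.21 and 4.53), so its fold depends on the pseudocount. Its log2 difference, peripheral minus mesenteric node, was -2.09 here and -2.67 with a pseudocount of 1. Creld2 missed the threshold when any 1 of the 4 mice was left out and under some other settings, Slpi without mouse 1 and Derl3 without mouse 3 or with a pseudocount of 1. Eaf2 and Slpi were also higher in spleen than in peripheral node, by 1.85-fold and 7.16-fold, where 38.8% of all probe sets were called, and Eaf2 missed the threshold there without mouse 1. Eaf2 (2.11-fold), Derl3 (2.25-fold) and Creld2 (1.50-fold) were higher in mesenteric node than in spleen, where 34.8% were called. Derl3 missed the threshold in that pair without mouse 2 or 3, with a pseudocount of 1, with no filter and without the mouse block, and no member passed it without normalization.

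**Figure D3:**
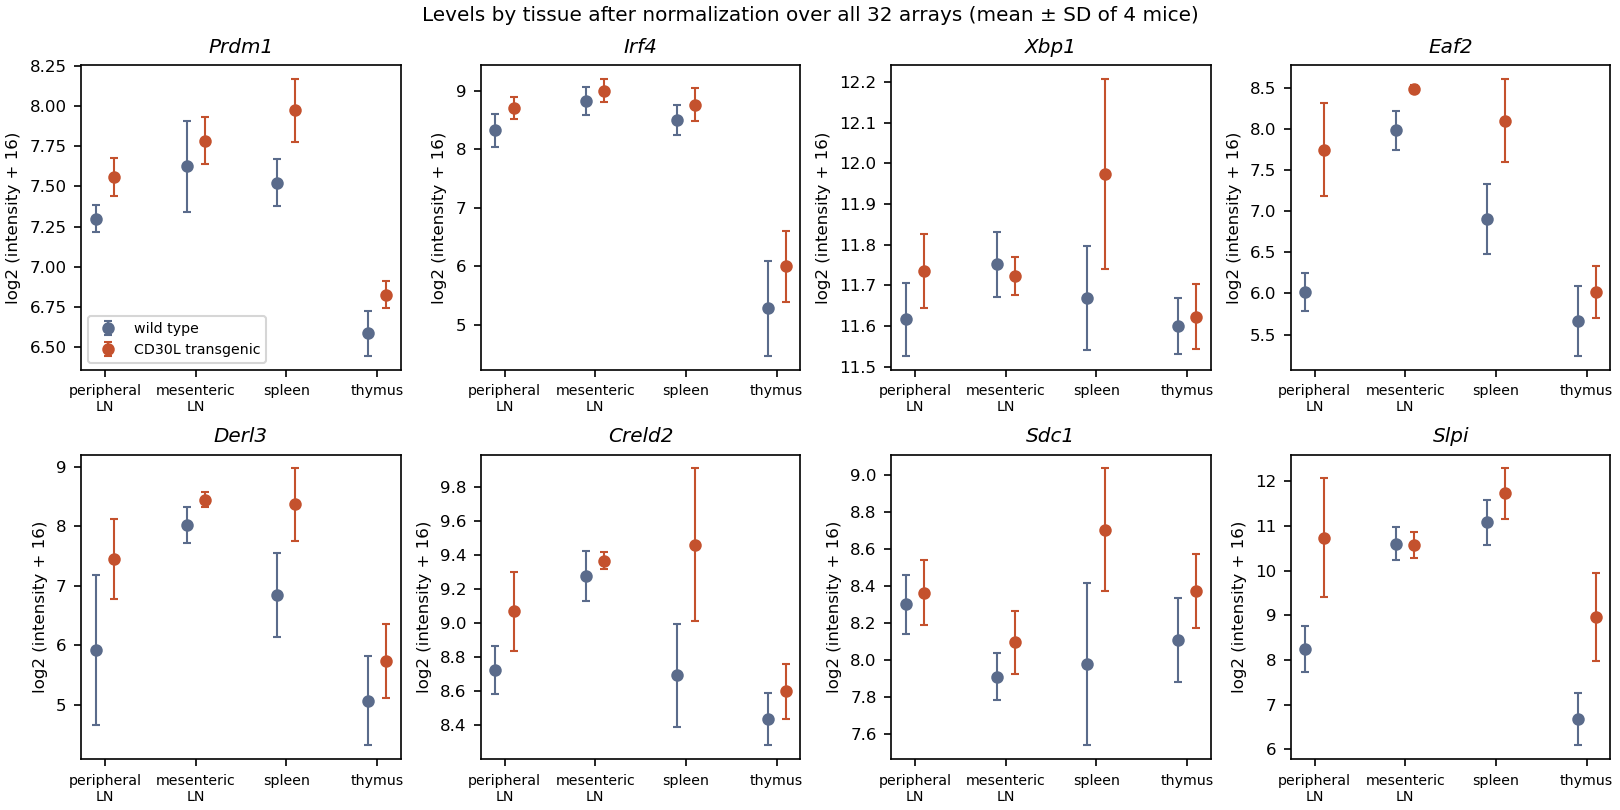
Log2 (intensity + 16) of each representative probe set in the 4 tissues, mean ± SD of 4 mice per genotype, after normalization over all 32 arrays. Wild type Slpi runs from 6.67 in thymus to 11.08 in spleen and wild type Eaf2 from 5.66 in thymus to 7.98 in mesenteric node, while transgenic peripheral node lies near mesenteric node for both.

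Thymus was set apart most by Slpi and by the representative probe set of Irf4. Irf4 was 5.28 ± 0.81 (SD, n = 4) in wild type thymus and 8.33 ± 0.28, 8.83 ± 0.24 and 8.51 ± 0.25 in peripheral node, mesenteric node and spleen. The 3 peripheral tissues did not differ from each other in Irf4 beyond the test's threshold. Peripheral node exceeded thymus in Prdm1 (1.64-fold), Irf4 (8.25-fold), Creld2 (1.22-fold) and Slpi (2.96-fold), with 57.3% of probe sets called, though Creld2 missed the threshold when any 1 of the 4 mice was left out. Mesenteric node exceeded thymus in 6 genes, among them Irf4 (11.7-fold), Slpi (15.3-fold) and Eaf2 (4.98-fold), with 55.1% called. Derl3 was also among them, with no fold given, since it was below the filter in thymus and at the floor on 1 wild type array. Spleen exceeded it in 5 genes, Slpi by 21.2-fold, with 50.1% called. Prdm1 was 6.59 ± 0.14 in thymus against 7.30 to 7.63 in the others, which did not differ from each other beyond the threshold.

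Xbp1 and Sdc1 varied less between tissues. The means of the representative Xbp1 probe set followed the same order, from 11.75 in mesenteric node to 11.60 in thymus, and no pair differed beyond the threshold. Another Xbp1 probe set (1420011_s_at) was higher in mesenteric node than in thymus (1.23-fold, adjusted limma p 0.0145). That of Sdc1 lay between 7.91 and 8.30, also with no pair called, and another Sdc1 probe set (1415944_at) was higher in thymus than in mesenteric node (1.84-fold) and spleen (1.99-fold). Transgenic peripheral nodes had a mean Eaf2 of 7.75 ± 0.56 and Slpi of 10.74 ± 1.34 on this scale, against 7.98 ± 0.23 and 10.61 ± 0.36 in wild type mesenteric nodes and 6.02 ± 0.23 and 8.24 ± 0.51 in wild type peripheral nodes. Derl3 stood at 7.45 ± 0.67 in transgenic and 5.93 ± 1.26 in wild type peripheral node, with 8.02 ± 0.31 in wild type mesenteric node.

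Other genes of plasma cells were counted by a list that holds none of the members. Of its 15 genes 14 matched a probe set. None passed an adjusted limma p of 0.05 within a tissue, and at an unadjusted p under 0.05 there were 4 of 14 in peripheral node, 4 of 14 in mesenteric node, 7 of 14 in spleen and 3 of 12 in thymus, higher in transgenic mice, and 1 lower in thymus (Itga4, an integrin, -0.21 ± 0.09). Over all probe sets 8.36%, 4.71%, 8.56% and 7.26% had such a p in either direction, in the same order of tissues. A higher transgenic mean was found in 14 of 14, 11 of 14, 11 of 14 and 8 of 12 genes of the list. The list's median difference was 0.23, 0.14, 0.25 and 0.20. The genes named from the list are those with the smallest p. Jchain, which joins IgM and IgA units, differed by 0.97 ± 0.21 in peripheral node and was called by the fit over all arrays there (adjusted p 0.00676). Tnfrsf17 (BCMA), a survival receptor of plasma cells, differed by 1.02 ± 0.26 in spleen, where that fit called it (adjusted p 0.0419), and by 0.77 ± 0.15 in mesenteric node.

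Mzb1, a chaperone for immunoglobulin, differed by 0.47 ± 0.17, 0.29 ± 0.09, 0.55 ± 0.16 and 0.93 ± 0.39 in peripheral node, mesenteric node, spleen and thymus. Slamf7, a surface receptor of plasma cells and killer cells, differed by 0.33 ± 0.12, 0.40 ± 0.13 and 0.69 ± 0.21 in the first 3. Pou2af1, a coactivator of immunoglobulin genes in B cells, differed by 0.38 ± 0.13 in peripheral node and 0.71 ± 0.25 in thymus. The transgenic mice stood above every wild type mouse for Mzb1 in mesenteric node and spleen, for Slamf7 in spleen and for Pou2af1 in thymus. In the list this held for 1 of 14, 2 of 14, 7 of 14 and 1 of 12 genes in the 4 tissues. Over all probe sets it held for 2.43%, 2.71%, 2.8% and 2.54%. In thymus 1 gene of the list had every transgenic mouse below every wild type mouse.

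The 37 genes of the unfolded protein response and secretion had smaller median differences than the members in each tissue, a contrast that was not tested. None passed the adjusted threshold in any tissue or in the fit over all arrays, and 0, 0, 1 and 3 had an unadjusted p under 0.05 in peripheral node, mesenteric node, spleen and thymus. Their median differences were 0.04, -0.01, 0.13 and 0.07, and that in spleen was -0.07 without normalization, where the median of all probe sets moved from 0.01 to -0.17. A higher transgenic mean was found in 25, 16, 29 and 30 of the 37 genes in the same order of tissues, a share not computed over all probe sets. In spleen the list mean per array was 10.225 to 10.440 in transgenic and 10.120 to 10.219 in wild type mice. Herpud1, which acts with the degradation machinery, differed by 0.38 ± 0.15 in spleen. In thymus Ero1b, an oxidase of disulfide formation, differed by 0.42 ± 0.11 and Manf, a secreted stress protein, by 0.28 ± 0.09.

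Genes of B cell identity, several of which Prdm1 represses, were listed to set beside the members, and 12 of 14 matched. In peripheral node, 2 were higher at an unadjusted p under 0.05, Ciita (0.60 ± 0.13), the master regulator of MHC class II, and Bcl6 (0.37 ± 0.14), the germinal centre repressor that opposes Prdm1. Id3 was lower (-0.39 ± 0.16), and over all probe sets 8.36% reached that level in either direction. In spleen Bcl6 differed by 0.59 ± 0.18 and was called by the fit over all arrays (adjusted p 0.0283). In thymus 8 of 11 tested had a higher transgenic mean, and for 1 gene every transgenic mouse was below every wild type mouse. At an unadjusted p under 0.05, 6 of 11 were higher, against 7.26% of all probe sets in either direction. Among them were Cd79a (0.90 ± 0.26), part of the B cell receptor, Cd22 (0.68 ± 0.26) and Spib (0.46 ± 0.17). The fit over all arrays called Cd79a (adjusted p 0.00966). These 6 genes stand beside the thymic Slpi difference, and their part in it was not tested. In mesenteric node none of the 12 had an unadjusted p under 0.05.

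**Figure D4:**
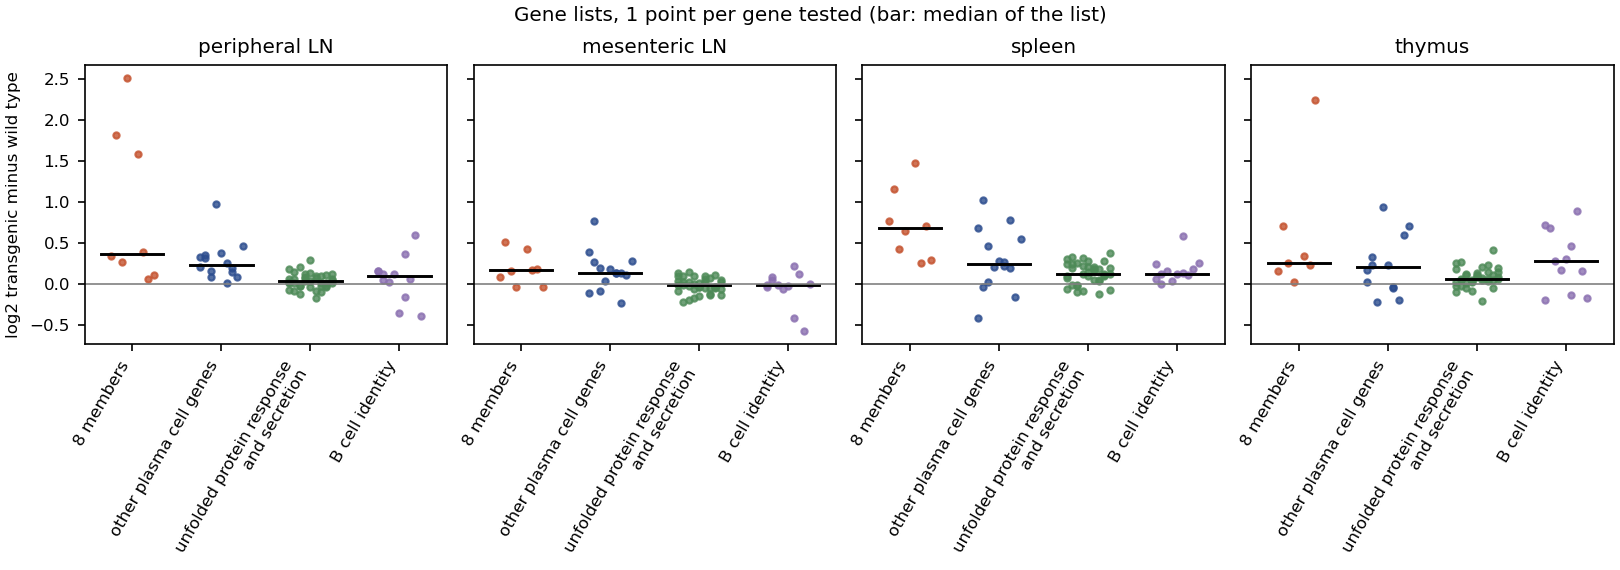
Transgenic minus wild type difference (log2) of each gene tested in 4 lists, by tissue, with bars at the list medians. The members have medians of 0.37, 0.17, 0.68 and 0.26 in peripheral node, mesenteric node, spleen and thymus, and the list of the unfolded protein response has medians of 0.04, -0.01, 0.13 and 0.07.

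Finally, the members were set against each other and against all genes by how they varied over the 32 arrays once the mean of each tissue was removed. This is a description, with no test, and the arrays share mice and genotypes. The genotype means were left in, so genes that are both higher in transgenic mice correlate in part for that reason alone. Among the members, Xbp1 and Creld2 ran most alike, with a Pearson r of 0.847, followed by Eaf2 and Creld2 (0.811), Derl3 and Creld2 (0.808) and Creld2 and Sdc1 (0.803). Xbp1 and Irf4 ran least alike (0.151), and all 28 pairs were positive, a share that was not computed for other genes.

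Of 12982 genes compared, those most like Eaf2 were Cep55 (0.918), a protein of cell abscission, Mybl1 (0.876), a transcription factor high in germinal centre B cells, and Lmo7 (0.857). Those most like Creld2 were Manf (0.857), Rassf6 (0.850) and Xbp1 (0.847), and those most like Derl3 were Dpp3 (0.832), Creld2 (0.808) and Rassf6 (0.770). Those most like Xbp1 were Creld2 (0.847), Ada (0.807), an enzyme of purine breakdown, and Clptm1l (0.784). Slpi was most like Jchain (0.844), Mzb1 (0.765) and Pou2af1 (0.733), all of the plasma cell list. Prdm1 was most like Zfp362 (0.775), Bhlhe40 (0.755) and Bcat1 (0.749). Irf4 was most like Myl4 (0.786), Trmt44 (0.760) and an immunoglobulin kappa variable segment (0.740). Sdc1 was most like Stx18 (0.863), Syngr2 (0.850) and Hmgn3 (0.845).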

How the data were processed

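The authors' deposited values are intensity values on a linear scale, with negative numbers on 14.9% to 18.4% of each array's probe sets. How they were summarised from probes, and whether arrays were scaled, is not given in the sources used here. Per the labels' protocols, total RNA was labelled with biotin. The labels give 4 separate mice per genotype.

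Values below 0 were raised to 0 and put on a log2 (value + 16) scale. Each tissue's 8 arrays were then quantile normalized without the 64 control probe sets. Those whose mean exceeded the 40th percentile, 27022 per tissue, were tested with limma 3.58.1 in R 4.3.3 and Benjamini-Hochberg adjustment over all of them. Wild type tissues were compared by limma with the mouse as a block, and genotype differences between tissues by limma on each animal's gap, both after quantile normalization over 32 arrays. The limma tests were tested on simulated data. Symbols came from the array's annotation table, with 34945 probe sets under 1 symbol, 932 under several and 9160 under none. Of 141 entries in 13 gene lists, 131 matched. Lists were taken up to 4 genes per tissue by smallest p, and neighbours by the 3 highest correlations. The alternatives changed the pseudocount (1, 64), the normalization (none, common median), the filter (none, 60th percentile) or the model (1 fit over all arrays, robust moderation, blocks) or left arrays out. Mice 1 and 2 against 3 and 4 is a division found in the data. The members and lists were chosen with earlier results of these data known. Arrays have no read depth, so precision rests on how many mice there are. Pancreas, muscle, epithelial, neutrophil, macrophage, erythroid and T cell lists served to describe other cells.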

Additional observations from a re-analysis of the deposited data

Results flagged for a closer look

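In 108 groups of 4 mice of 1 genotype, tissue and member probe set, 5 had a highest or lowest mouse whose gap to the next exceeded 0.829 of the group's range. Chance gives about 1 in 20 groups. Xbp1 in mesenteric node (1420012_at) was 7.35 in wild type mouse 2, whose array also held the most pancreas transcripts, against 8.24 or more in the other 3. Sdc1 in mesenteric node (1415943_at) was 7.22 in transgenic mouse 3, another array with pancreas transcripts, against 7.60 or more. Xbp1 in spleen (1420011_s_at) was 10.79 in wild type mouse 1, against 10.57 or less. In thymus, Eaf2 was 5.08 in wild type mouse 4, against 5.85 or more, and Creld2 was 8.62 in wild type mouse 2, whose array held the most muscle transcripts of the thymi, against 8.34 or less.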

How the results depend on the processing

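Per-tissue calls of members numbered 0 in most settings and 2 in peripheral node without normalization (Eaf2 and Slpi). Leaving out 1 mouse gave 0 to 2, with 2 (the same genes) only without transgenic mouse 3, the lowest of its group for both. The fit over all 32 arrays called 2 in peripheral node, 3 in spleen and 1 in thymus, 1 other plasma cell gene in each of peripheral node and spleen, and 1 B cell gene in each of spleen and thymus. Over all probe sets the calls ranged from 0 to 112 in peripheral node, 0 to 3 in mesenteric node, 0 to 224 in spleen and 0 to 58 in thymus. The Eaf2 difference stayed between 1.30 and 2.08 in peripheral node (adjusted limma p 0.000188 to 0.378) and between 0.92 and 1.31 in spleen (0.0225 to 0.936). That of Slpi stayed between 2.12 and 3.14 in peripheral node (0.00488 to 0.59) and between 1.83 and 2.70 in thymus (0.0363 to 0.984). That of Creld2 in spleen had adjusted p of 0.0207 to 0.955 and that of Sdc1 0.0411 to 0.958. Without normalization the median of all probe sets shifted to 0.18, 0.08, -0.17 and 0.09 in peripheral node, mesenteric node, spleen and thymus.

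In wild type mice, leaving out 1 mouse gave 2 to 3 genes between the nodes, against 4, (2 without mouse 1 or 3) and 1 to 2 between peripheral node and spleen (1 without mouse 1), and without normalization 0 of 3 remained between mesenteric node and spleen.

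Values that turned sign were all uncalled. In mesenteric node without normalization these were Xbp1 (1420011_s_at 0.0890, 1437223_s_at 0.139) and Slpi (0.136), and with a common median they were 0.0922, 0.142 and 0.139. Without the arrays with pancreas transcripts Slpi was 0.0105 and Sdc1 (1415943_at) 0.00080. Without those with muscle transcripts Irf4 (1421174_at) was -0.245 and Sdc1 (1415943_at) -0.0637 in peripheral node. In spleen Xbp1 (1420012_at) was -0.0315 and in thymus Irf4 (1421174_at) 0.0640 without normalization, and Xbp1 (1437223_s_at) in thymus was -0.0383 with a common median.

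Leaving out 1 mouse turned some too. In peripheral node Irf4 (1421174_at) ran from -0.0606 to 0.127 and Sdc1 (1437279_x_at) from -0.0096 to 0.155. In mesenteric node Slpi ran from -0.168 to 0.132 and Xbp1 (1420012_at) from -0.0589 to 0.331. In thymus Irf4 (1421174_at) ran from -0.158 to 0.131, and Xbp1 from -0.0123 to 0.0518 (1437223_s_at), -0.0015 to 0.0760 (1420886_a_at) and -0.311 to 0.0309 (1420012_at). The Slpi difference in peripheral node minus that in thymus, 0.21 with all mice, ran from -0.0974 to 0.700.

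Same-numbered mice of the 2 genotypes correlated at -0.44 to 0.33 over 16 pairs, with 8 above 0.1 (3 of the 4 in spleen), so the numbers were not taken to pair them, and with a replicate block for the number 0 members were called in each tissue. Without the mouse block, 3, 2, 3, 2, 6 and 5 members were called in the wild type pairs. The cause of each change was not tested.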
